A study of Mus musculus with 6 samples.

Results

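The genes described here are 7 genes of mouse chromosome 17, the chromosome of Ppp2r1a, that lie outside the class II family and were chosen by their values in these libraries because they differed between PP2Aa-deficient and wild-type (WT) B cells. They are Tmem242, Tagap1, Rab26os, Vars, Crisp3, Pla2g7 and Emr1, out of 22788 genes used and 1121 on chromosome 17. All 7 were among the 9425 genes tested, which had 1 FPKM or more in no fewer than 3 libraries, and of which 512 lie on chromosome 17. FPKM counts RNA fragments scaled to transcript length and to the mapped fragments of the library. Because the same group comparison chose the members, their values are a description and carry no test.

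RNA was sequenced from 3 libraries of PP2Aa-deficient B cells and 3 of WT B cells, from mice 8 weeks old on a C57BL/6 background. The deficient genotype carries a Cre recombinase with both copies of Ppp2r1a floxed (Ppp2r1aflox/flox), and the WT label lists neither allele. Loss of PP2Aa, the Cre and the floxed allele with the DNA around it therefore cannot be told apart in this design. The labels give spleen as the tissue, while their protocols describe a wash of the peritoneal cavity, and separate mice for the libraries are not stated. Where libraries share a mouse, the spread between them is technical, and the p-values given for other genes then rest in part on technical spread. Xist, given below, set replicate 1 of each group apart from replicates 2 and 3.

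Protein phosphatase 2A is a heterotrimer in which the A subunit, a scaffold encoded mostly by Ppp2r1a, holds the catalytic subunit and one of many regulatory B subunits. Genes near each other on a chromosome are inherited together, so the DNA that surrounds a modified allele travels with it through breeding. Chromosome 17 also carries the mouse major histocompatibility complex, which holds the class II genes, Vars and many class I genes.

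Depth was low. Low FPKM values lay on steps of 1 fragment, and these steps put the libraries at about 2070000 to 2510000 fragments in PP2Aa-deficient B cells and 2110000 to 3710000 in WT B cells, with GENCODE M21 transcript lengths. Each library held 9229 to 9332 genes at 1 FPKM or more. The 12 B cell markers summed to 3625 to 4099 FPKM in PP2Aa-deficient libraries and 3812 to 3966 FPKM in WT libraries, and 0 of them stayed under 1 FPKM. Xist, the RNA that silences an X chromosome in female cells, had 84.5 FPKM in PP2Aa-deficient replicate 1 and 65.2 FPKM in WT replicate 1, and at most 0.116 FPKM in the other libraries.

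Ppp2r1a checks the genotype, and it separated PP2Aa-deficient replicate 2 from the other 2 deficient libraries. It was at 31.3, 56.2 and 28.2 FPKM in PP2Aa-deficient replicates 1 to 3, against 85.7, 85.4 and 83.7 FPKM in WT replicates 1 to 3. Set against the WT mean, the deficient libraries kept 36.9%, 66.2% and 33.2%. Every deficient library was below every WT library, and replicate 2 lay between the others and WT. The log2 change was -1.18 (SE 0.23), with a limma adjusted p = 0.168.

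The 7 members showed 2 patterns that were read from these values. In Tmem242, Tagap1, Rab26os and Pla2g7 the 3 deficient libraries stood together. In Vars, Crisp3 and Emr1 replicate 2 stood closer to WT than replicates 1 and 3 did. In 6 of the 7 the groups did not overlap, which also held for 15.1% of all tested genes, and the exception was Crisp3. Because the members were chosen on this difference, nothing is read from that count.

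**Figure D1:**
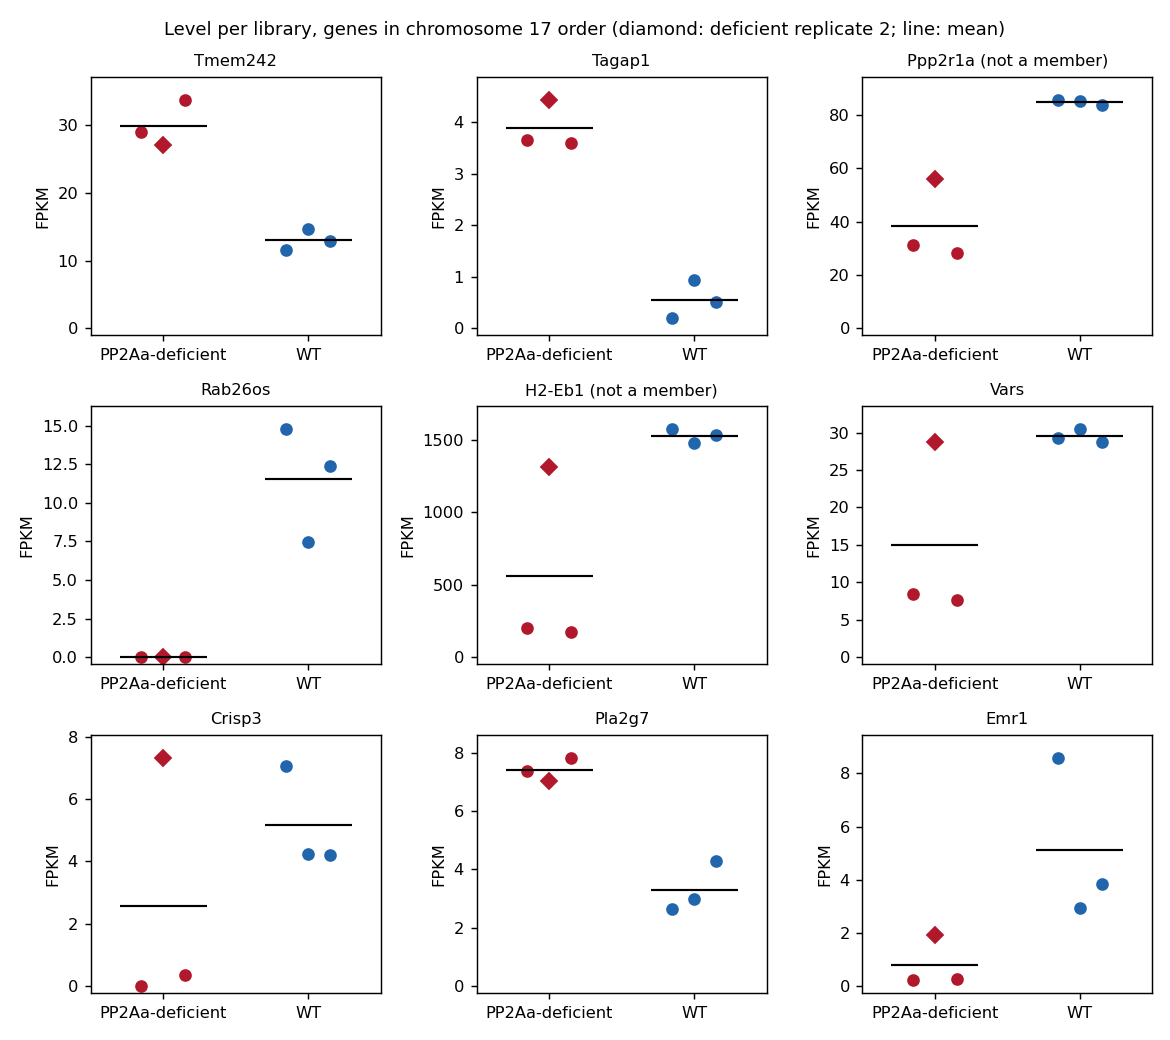
Level in FPKM of the 7 chosen genes, Ppp2r1a and H2-Eb1 in each of the 6 libraries, PP2Aa-deficient left of WT, with points for libraries, a diamond for PP2Aa-deficient replicate 2 and a line for the group mean. Replicate 2 sits at the WT level in Vars, at 28.7 FPKM, and with the other deficient libraries in Tmem242, at 27.0 FPKM.

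Vars encodes the valyl-tRNA synthetase, the enzyme that loads valine onto its tRNA for protein synthesis. It was at 8.49, 28.7 and 7.67 FPKM in PP2Aa-deficient replicates 1 to 3, against 29.3, 30.5 and 28.8 FPKM in WT replicates 1 to 3. Replicates 1 and 3 thus held 28.8% and 26.0% of the WT mean, and replicate 2 held 97.3%. The group means were 15 ± 11.9 FPKM in PP2Aa-deficient and 29.5 ± 0.916 FPKM in WT B cells (SD, n = 3 each), so nearly all of the spread lay in the deficient group. These levels rest on about 76.9 to 246 fragments in deficient libraries and 256 to 469 in WT libraries, so Vars is the most deeply covered of the 3 members with this pattern.

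The other cytosolic tRNA synthetases and their partner proteins gave 22 tested genes, of which 18 were lower and 4 higher in PP2Aa-deficient B cells, with a median log2 change of -0.13. Over all tested genes 4818 were lower and 4607 higher, with a median of -0.007. Of the 22, 0 were called by limma at an adjusted p of 0.05 and 1 was lower at an unadjusted p under 0.05. That gene was Aimp2, a scaffold of the multi-synthetase complex, at 9.13 ± 0.715 FPKM in PP2Aa-deficient and 13.7 ± 1.82 FPKM in WT B cells (SD, n = 3 each; limma adjusted p = 0.353). Vars2, the mitochondrial counterpart, was at 1.03, 0.104 and 1.60 FPKM in PP2Aa-deficient replicates, against 1.84, 1.39 and 1.57 FPKM in WT replicates, and the groups overlapped.

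Crisp3 encodes a cysteine-rich secretory protein, a secreted protein known from salivary gland and, in the mouse B lineage, as a target of the octamer factor OCT2. It was at 0, 7.33 and 0.345 FPKM in PP2Aa-deficient replicates 1 to 3, against 7.08, 4.25 and 4.2 FPKM in WT replicates 1 to 3. Replicate 2 was the highest of all 6 libraries, so the groups overlapped, while replicates 1 and 3 were below every WT library. By transcript length these values correspond to about 0, 21.5 and 1.2 fragments in the deficient libraries and 21.2, 22.3 and 15.5 in the WT libraries. A value of 0 in this table can also be a failed estimate, and 10.2% of the 31-base words of Crisp3 occur in its neighbour Crisp1, which did not exceed 0.943 FPKM.

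The list made for octamer factors of B cells held Pou2f1, Pou2f2, Pou2af1, Spib and Cd36, so not octamer factors alone. Of these 5 genes, 3 were lower and 2, Pou2af1 and Cd36, were higher, with 0 called. Pou2f2, which encodes OCT2, was at 4.18, 5.32 and 4.64 FPKM in PP2Aa-deficient replicates, against 8.30, 6.42 and 3.26 FPKM in WT replicates, with overlapping groups. Its coactivator gene Pou2af1 was at 79.9 ± 10.6 FPKM in PP2Aa-deficient and 74.2 ± 7.36 FPKM in WT B cells (SD, n = 3 each). Cd36, a lipid scavenger receptor also known as an OCT2 target in mouse B cells, was at 48.9, 29.2 and 34.4 FPKM in PP2Aa-deficient replicates, against 23.9, 22.2 and 24.2 FPKM in WT replicates (limma adjusted p = 0.369), the opposite direction to Crisp3 in replicates 1 and 3. In the CRISP family 2 other genes were tested, and 0 were called; Glipr2 was at 20.7 ± 3.24 FPKM in PP2Aa-deficient and 23.7 ± 1.39 FPKM in WT B cells (SD, n = 3 each).

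Emr1 encodes an adhesion G protein-coupled receptor, the surface antigen by which mature mouse macrophages are recognised, which eosinophils also carry. It was at 0.242, 1.91 and 0.250 FPKM in PP2Aa-deficient replicates 1 to 3, against 8.59, 2.93 and 3.84 FPKM in WT replicates 1 to 3. The groups did not overlap, replicate 2 was the highest deficient library, and WT replicate 1 was the highest of all. Replicates 1 and 3 rest on about 2.0 fragments each and replicate 2 on 12.8, against 58.8, 35.3 and 32.4 in WT. In a bulk sample, fewer macrophages and less Emr1 RNA per cell cannot be told apart.

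Markers of macrophages other than Emr1 were mixed in direction. All 24 were in the table, 10 were tested, 7 of those were lower and 3 higher, and 0 were called. Their summed level was 123 to 181 FPKM in PP2Aa-deficient libraries and 207 to 388 FPKM in WT libraries, most of it Apoe, a lipoprotein gene, at 98.8 ± 35.6 FPKM in PP2Aa-deficient and 232 ± 85.5 FPKM in WT B cells (SD, n = 3 each). Apoe was the only 1 of the 10 tested markers at an unadjusted limma p under 0.05, against 9.47% of all tested genes. Without Apoe the other 23 summed to 41.2 to 51.3 FPKM in PP2Aa-deficient libraries and 48.6 to 62.5 FPKM in WT libraries, and the groups overlapped. The lysozyme gene Lyz2 was at 11.3 ± 2.08 FPKM in PP2Aa-deficient and 11.3 ± 2.48 FPKM in WT B cells, and Csf1r, the receptor that macrophages need for survival, was at 0.993, 0.964 and 1.44 FPKM in PP2Aa-deficient replicates, against 0.707, 2.01 and 2.2 FPKM in WT replicates. Gata6, which defines resident peritoneal macrophages, and Lyve1 were listed at 0 in all 6 libraries, and 10 of the 24 stayed under 1 FPKM everywhere.

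Granulocyte markers, most of them of neutrophils, summed to 13.1 to 16.4 FPKM in PP2Aa-deficient libraries and 23.9 to 46.4 FPKM in WT libraries. The separation rests on Prg2, the eosinophil major basic protein gene, at 5.66, 14.6 and 13.7 FPKM in PP2Aa-deficient replicates, against 39.9, 21.2 and 33.9 FPKM in WT replicates. Without Prg2 the other 12 summed to 1.83 to 7.48 FPKM in PP2Aa-deficient libraries and 2.11 to 6.57 FPKM in WT libraries, and the groups overlapped. Epx, the eosinophil peroxidase gene, was listed at 0 in all 6 libraries. The part of other cell types in the Emr1 values was not tested. Of the other adhesion receptors listed, 1 was tested and 14 stayed under 1 FPKM. The tested one, Cd97, which shares its EGF-TM7 architecture with Emr1, was at 93.2 ± 6.83 FPKM in PP2Aa-deficient and 115 ± 9.31 FPKM in WT B cells (SD, n = 3 each; limma adjusted p = 0.483).

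Rab26os is a long noncoding RNA on the strand opposite Rab26, a small GTPase gene of secretory granules. It was listed at 0 in all 3 PP2Aa-deficient libraries, against 14.8, 7.48 and 12.4 FPKM in WT replicates 1 to 3. WT values correspond to about 15, 13.2 and 15.3 fragments, with the depth of each library already included, and WT replicate 2 was the deepest library. Rab26os passed the minimum of 1 FPKM through the WT libraries alone, and replicate 2 did not differ from the other deficient libraries here. GENCODE places the small nucleolar RNA gene Snord60 within it, which holds 9.74% of its 31-base words. Rab26 did not exceed 0.428 FPKM, and of 4 other secretory Rab genes tested all 4 were lower and 0 were called. The one of smallest p was Rab37, at 2.25 ± 1.09 FPKM in PP2Aa-deficient and 3.27 ± 1.24 FPKM in WT B cells (SD, n = 3 each).

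The nearest tested genes on either side of Rab26os were Traf7, a ubiquitin ligase gene, and Pkd1, the polycystin-1 gene. Traf7 was at 15.3, 16.3 and 19.0 FPKM in PP2Aa-deficient replicates, against 27.6, 22.7 and 19.1 FPKM in WT replicates, with a log2 change of -0.42 (limma adjusted p = 0.483). Pkd1 was at 5.97 ± 1.15 FPKM in PP2Aa-deficient and 4.16 ± 0.593 FPKM in WT B cells, the other way, with a log2 change of 0.43 (SD, n = 3 each; limma adjusted p = 0.527). Whether counting used strand is not stated, so reads of overlapping transcripts on opposite strands cannot be separated.

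The promoter windows of Rab26os and Crisp3 are shown because these are the 2 members with a deficient library listed at 0. RefSeq windows, 250 bases before to 50 after the start, were found for 5 of the 7 members, and Vars and Emr1 are named only. Both are given 5′ to 3′ on the gene's strand, with capitals for exact matches, on either strand, to the 3 motifs spelled out after them.
Rab26os, GRCm38.p6, chr17:24528001-24528300, plus strand: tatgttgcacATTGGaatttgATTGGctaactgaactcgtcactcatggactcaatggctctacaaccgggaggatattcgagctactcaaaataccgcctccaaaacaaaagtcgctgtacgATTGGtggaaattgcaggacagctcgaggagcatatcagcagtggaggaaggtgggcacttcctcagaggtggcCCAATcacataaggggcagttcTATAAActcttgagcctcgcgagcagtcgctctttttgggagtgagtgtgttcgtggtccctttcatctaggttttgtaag
Crisp3, GRCm38.p6, chr17:40242239-40242538, minus strand: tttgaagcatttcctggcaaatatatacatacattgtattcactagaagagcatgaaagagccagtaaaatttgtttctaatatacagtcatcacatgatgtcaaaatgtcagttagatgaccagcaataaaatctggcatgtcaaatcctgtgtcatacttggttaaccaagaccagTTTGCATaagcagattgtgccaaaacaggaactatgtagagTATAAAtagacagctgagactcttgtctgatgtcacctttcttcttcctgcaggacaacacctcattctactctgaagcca

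Both windows hold TATAAA on the gene's strand at base -31 from the start, a sequence found on either strand in 14.2% of the 27025 promoter windows. Crisp3 holds 1 match to ATGCAAA, on the opposite strand at base -72, the B cell octamer without its last letter, found in 4.59% of windows. The full octamer ATGCAAAT, which contains it, is found in 1.75% of windows and not in this one. Rab26os holds 4 matches to CCAAT, which 37.9% of windows contain at least once. GC content was 48.3% in the Rab26os window and 37.7% in the Crisp3 window, with 11 and 0 CpG pairs. The match of letters is a description only.

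Tmem242 encodes a mitochondrial membrane protein that, in human cells, helps to assemble the ATP synthase. It was at 29.0, 27.0 and 33.7 FPKM in PP2Aa-deficient replicates 1 to 3, against 11.6, 14.7 and 12.9 FPKM in WT replicates 1 to 3. All deficient libraries were above all WT libraries, replicate 2 included, and the means were 29.9 ± 3.42 FPKM in PP2Aa-deficient and 13.1 ± 1.52 FPKM in WT B cells (SD, n = 3 each), or 229% of WT. No 31-base word of Tmem242 occurs in another gene's transcripts, so its reads can be assigned. Its nearest tested neighbours were Arid1b, a chromatin remodelling gene, with a log2 change of -0.11, and Zdhhc14, a palmitoyltransferase gene, with one of 0.22 (limma adjusted p = 0.891 for Arid1b and adjusted p = 0.843 for Zdhhc14).

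The ATP synthase subunits and assembly factors besides Tmem242 gave 20 tested genes, of which 7 were lower and 13 higher in PP2Aa-deficient B cells, with a median log2 change of 0.07 and 0 called. Tmem70, the other membrane protein known to build the synthase's c-ring, was at 5.29 ± 1.31 FPKM in PP2Aa-deficient and 6.99 ± 1.70 FPKM in WT B cells (SD, n = 3 each). The member of smallest p, the subunit gene Atp5j2, was at 108, 128 and 97.4 FPKM in PP2Aa-deficient replicates, against 107, 75.7 and 65.5 FPKM in WT replicates (limma adjusted p = 0.521).

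Tagap1 encodes a GTPase-activating protein and is a near copy of Tagap, a gene of activated T cells. It was at 3.65, 4.43 and 3.59 FPKM in PP2Aa-deficient replicates 1 to 3, against 0.206, 0.936 and 0.503 FPKM in WT replicates 1 to 3. Replicate 2 was the highest deficient library. Tagap1 passed the minimum of 1 FPKM through the deficient libraries alone. The values correspond to about 21.2, 21.2 and 20.1 fragments in the deficient libraries and 1.0, 8.0 and 3.0 in WT.

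Counting is uncertain for Tagap1, because 84.0% of its 31-base words occur in transcripts of other genes, 73.2% in Tagap. Tagap itself, its nearest tested gene on one side, was at 30.3, 36.4 and 29.4 FPKM in PP2Aa-deficient replicates, against 22.8, 33.3 and 36.4 FPKM in WT replicates, and the groups overlapped (log2 change 0.07, limma adjusted p = 0.939). Ezr, the membrane linker gene on the other side, had a log2 change of -0.06 (limma adjusted p = 0.923). Other copied genes of the same stretch, Rnaset2a, Rnaset2b, Rsph3a and Rsph3b, chosen after their values were seen, did not exceed 1.31 FPKM in any library.

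Pla2g7 encodes the secreted hydrolase of platelet-activating factor, a lipid mediator of inflammation, and is known as a product of macrophages. It was at 7.36, 7.03 and 7.82 FPKM in PP2Aa-deficient replicates 1 to 3, against 2.63, 2.99 and 4.30 FPKM in WT replicates 1 to 3. Replicate 2 stood with the other deficient libraries, the groups did not overlap, and the deficient mean of 7.40 ± 0.396 FPKM was 224% of the WT mean of 3.31 ± 0.877 FPKM (SD, n = 3 each). Its values rest on about 38.7, 30.5 and 39.7 fragments in PP2Aa-deficient and 11.7, 23.3 and 23.4 in WT libraries. Both macrophage-associated members thus lay on opposite sides of WT, Emr1 below it and Pla2g7 above it. A noncoding gene on the opposite strand, 1700071M16Rik, holds 8.20% of the 31-base words of Pla2g7 and did not exceed 1.64 FPKM.

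Both tested neighbours of Pla2g7 were on the same side as it. Cd2ap, an adaptor of the actin skeleton, was at 10.7, 7.58 and 9.12 FPKM in PP2Aa-deficient replicates, against 4.86, 5.87 and 6.76 FPKM in WT replicates (log2 change 0.57, SE 0.18, limma adjusted p = 0.397). Cyp39a1, an oxysterol hydroxylase gene, was at 6.11, 5.32 and 7.22 FPKM in PP2Aa-deficient replicates, against 2.26, 2.80 and 4.87 FPKM in WT replicates (log2 change 0.78, SE 0.24, limma adjusted p = 0.379). Neither overlapped between groups, which also held for 15.1% of all tested genes, and neither was called. In Pla2g7, Cd2ap and Cyp39a1 every deficient library was above every WT library. Crisp3, which lies 4 tested genes from Pla2g7, was above every WT library in replicate 2 alone, at 7.33 FPKM against 7.08 FPKM in WT replicate 1. That value rests on about 21.5 fragments, against 22.3 in WT replicate 2.

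Of the 6 other listed genes of platelet-activating factor turnover that were tested, 1 was lower and 5 higher, with 0 called. The receptor gene Ptafr was at 2.85, 2.59 and 1.96 FPKM in PP2Aa-deficient replicates, against 0.280, 1.59 and 0.686 FPKM in WT replicates, without overlap (log2 change 0.96, SE 0.29, limma adjusted p = 0.370). Lpcat2, which makes the mediator in activated leukocytes, was at 5.21 ± 1.64 FPKM in PP2Aa-deficient and 3.46 ± 0.544 FPKM in WT B cells (SD, n = 3 each; limma adjusted p = 0.598).

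Along the chromosome the members do not form a single run. Counting tested genes in RefSeq order, Tmem242 is number 8, Tagap1 16, Ppp2r1a 47, Rab26os 81, H2-Eb1 238, Vars 257, Crisp3 321, Pla2g7 325 and Emr1 426 of 512. Tmem242, Tagap1 and Rab26os, with all 3 deficient libraries together, come early in this order. Ppp2r1a lies among them, as do Mpc1 (number 20) and 4930506C21Rik (number 21), both given below. In these genes replicate 2 lay between the other deficient libraries and WT, so the early stretch holds both patterns. H2-Eb1, Vars, Crisp3 and Emr1, in which replicate 2 stood closer to WT than the other deficient libraries, come later. Pla2g7, with all 3 together, lies between Crisp3 and Emr1. Besides Tagap, Traf7, Pkd1, Cd2ap and Cyp39a1, the nearest tested genes of the other members had log2 changes of -0.04 (Lsm2) and -0.48 (Sapcd1) beside Vars, 0.34 (H2-M2) and 0.30 (Cenpq) beside Crisp3, and -0.23 (Vav1) and -0.02 (Pja2) beside Emr1, with 0 called.

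**Figure D2:**
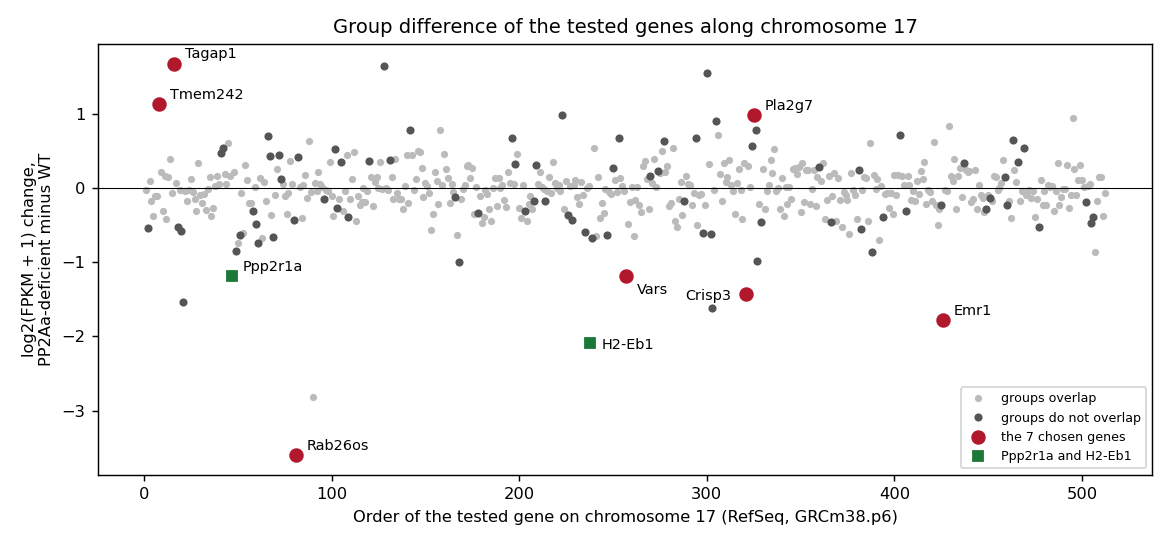
Difference in mean log2(FPKM + 1), PP2Aa-deficient minus WT, for each of the 512 tested genes of chromosome 17 in gene order, with the 7 chosen genes in red, Ppp2r1a and H2-Eb1 as green squares, and darker points for genes whose groups do not overlap. The chosen genes lie between numbers 8 and 426, above and below 0; the size for Rab26os, listed at 0 in every deficient library, is set by the added 1.

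The rest of chromosome 17 was compared with limma, on log2(FPKM + 1) over all tested genes. Over all genes 3 were called at an adjusted p of 0.05, or 0.0318%. Of the 505 tested chromosome 17 genes that are not members 0 were called. At an unadjusted p under 0.05 there were 62 of these 505, or 12.3%, of which 34 were lower and 28 higher, against 893 or 9.47% of all tested genes. Chromosome 4 had a larger share, 90 of 580 tested genes or 15.5%, so a share above that of all genes was not particular to chromosome 17. Groups did not overlap in 81 of the 505, or 16%, against 15.1% of all tested genes, and the median log2 change was -0.018, against -0.007. Absolute log2 changes of at least 1 were found in 7 of the 505, or 1.39%, against 1.49% of all tested genes. With the members it was 13 of 512, or 2.54%. The members hold 6 of these 13 and were chosen on these values, so the share without them follows in part from the choice.

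In 5 equal stretches of the chromosome, the share of genes other than members at an unadjusted limma p under 0.05 was 18.0%, 8.74%, 18.8%, 10% and 5.94% in gene order. The first stretch holds Ppp2r1a, Tmem242, Tagap1 and Rab26os, and the third holds the class II genes and Vars. The first also counts the class I genes H2-Q8 and H2-Q9, which the order used set apart from H2-Q7 and H2-Q10. H2-Q9 was among its genes under that p (limma unadjusted p = 0.0255). The last, which holds Emr1, had the lowest share. No test was made between stretches, and neighbouring genes are not independent.

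The 10 genes of smallest p that the naming rule gave outside the members led with Ppp2r1a, and after it came Mpc1, the mitochondrial pyruvate carrier gene. Mpc1 was at 60.2, 75.2 and 59 FPKM in PP2Aa-deficient replicates, against 103, 96.0 and 91.2 FPKM in WT replicates (log2 change -0.58, SE 0.13, limma adjusted p = 0.244). The noncoding gene 4930506C21Rik, which overlaps Mpc1 and was chosen after its values were seen, was at 1.11, 4.03 and 1.13 FPKM in PP2Aa-deficient replicates, against 7.07, 7.65 and 6.92 FPKM in WT replicates. In both genes replicate 2 lay between the other deficient libraries and WT, as in Ppp2r1a. The class I gene H2-Bl was at 49.5, 25.3 and 39.9 FPKM in PP2Aa-deficient replicates, against 16.9, 20.6 and 20.5 FPKM in WT replicates (log2 change 0.90, SE 0.23, limma adjusted p = 0.258), with replicate 2 again the nearest to WT.

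Of the 10, replicate 2 was the deficient library nearest to the WT mean in 5, replicate 1 in 3 and replicate 3 in 2. Replicate 2 was nearest also in Nme4, a mitochondrial nucleoside diphosphate kinase gene, at 8.75, 1.63 and 2.06 FPKM in PP2Aa-deficient replicates, against 0.776, 0.44 and 0 FPKM in WT replicates. It was nearest in Pglyrp2, a peptidoglycan recognition gene, at 4.41, 3.82 and 4.58 FPKM in PP2Aa-deficient replicates, against 2.98, 2.17 and 1.8 FPKM in WT replicates.

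In the other 5 genes replicate 2 was not the nearest. It was the farthest from WT in Prr3, at 7.18, 5.79 and 8.13 FPKM in PP2Aa-deficient replicates, against 10.3, 11.9 and 11.1 FPKM in WT replicates. Atp6v0c, a subunit gene of the lysosomal proton pump, was at 100, 98.7 and 82.8 FPKM in PP2Aa-deficient replicates, against 139, 183 and 128 FPKM in WT replicates. Replicates 1 and 2 lay close together in Atp6v0c and in Atat1, the tubulin acetyltransferase gene. Atat1 was at 3.97, 3.98 and 4.73 FPKM in PP2Aa-deficient replicates, against 1.7, 2.37 and 2.76 FPKM in WT replicates. In Stk19 and Pkmyt1, a kinase gene that holds back mitosis, replicate 2 was the middle one of the deficient libraries. Stk19 was at 10, 8.09 and 6.36 FPKM in PP2Aa-deficient replicates, against 13.9, 12.9 and 12.4 FPKM in WT replicates. Pkmyt1 was at 1.86, 2.26 and 3.2 FPKM in PP2Aa-deficient replicates, against 5.61, 3.88 and 4.58 FPKM in WT replicates.

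The class II gene H2-Eb1, the beta chain gene of the E molecule, shared the pattern of Vars. It was at 199, 1313 and 174 FPKM in PP2Aa-deficient replicates, against 1575, 1478 and 1533 FPKM in WT replicates. Replicates 1 and 3 kept 13.0% and 11.4% of the WT mean and replicate 2 kept 85.9%. Of the 9 tested class II genes of the chromosome 5 were lower and 4 higher, with 0 called and 5 lower at an unadjusted limma p under 0.05. Over all tested genes 416 of 9425 were lower at that p.

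**Figure D3:**
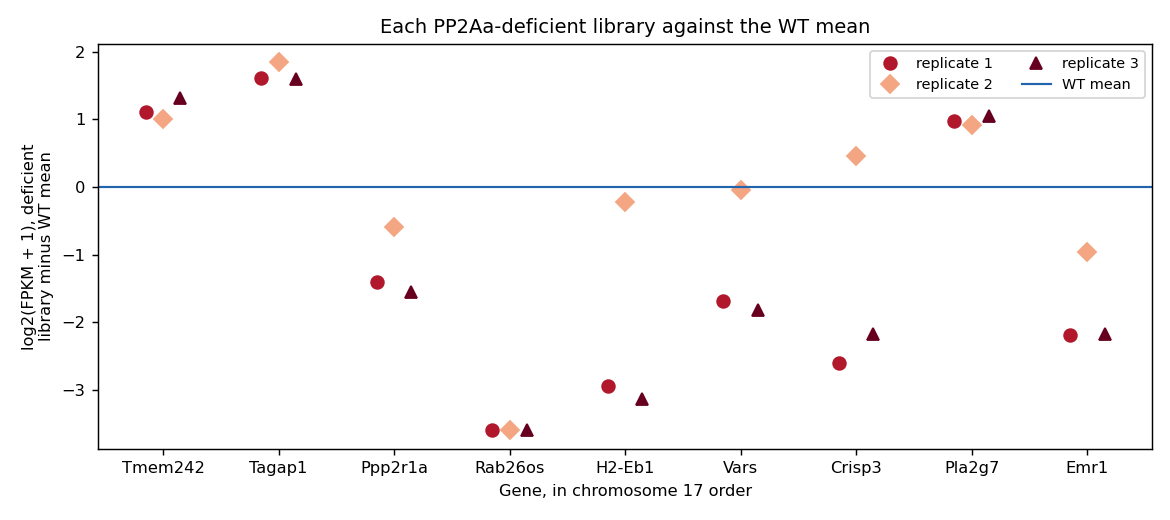
Each PP2Aa-deficient library's log2(FPKM + 1) minus the WT mean, for the 7 chosen genes, Ppp2r1a and H2-Eb1 in chromosome order, with the WT mean as the line at 0. Replicate 2 is at -0.04 for Vars and 0.46 for Crisp3, where replicates 1 and 3 are at -1.68 and -1.82 and at -2.60 and -2.17, and it stands with the others in Tmem242, Tagap1, Rab26os and Pla2g7.

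To see whether replicate 2 was nearer to WT in general, the deficient library nearest to the WT mean was counted among tested genes with an absolute log2 change of at least 1. On chromosome 17 this was replicate 1 in 1 gene, replicate 2 in 9 and replicate 3 in 2 of 13 genes, with 1 tie. Of these 13, 6 are members, chosen on these values, so nothing is read from that count. Among the 7 that are not members it was replicate 2 in 5, namely Ppp2r1a, H2-Eb1, 4930506C21Rik, H2-T22 and Nme4. In Nme4, and in H2-T22 at 0.00032, 3.88 and 3.1 FPKM in PP2Aa-deficient replicates, replicate 2 stood near replicate 3, with replicate 1 apart. The 5 thus do not share 1 pattern, and some of them were named above for their values. On the other chromosomes it was replicate 1 in 34, replicate 2 in 40 and replicate 3 in 47 of 124 genes, with 3 ties. With a pseudocount of 0.1 replicate 2 was nearest in 10 of 26 chromosome 17 genes that are not members, or 38.5%, and in 110 of 397 genes elsewhere, or 27.7%. These are descriptions of few genes with no test.

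**Figure D4:**
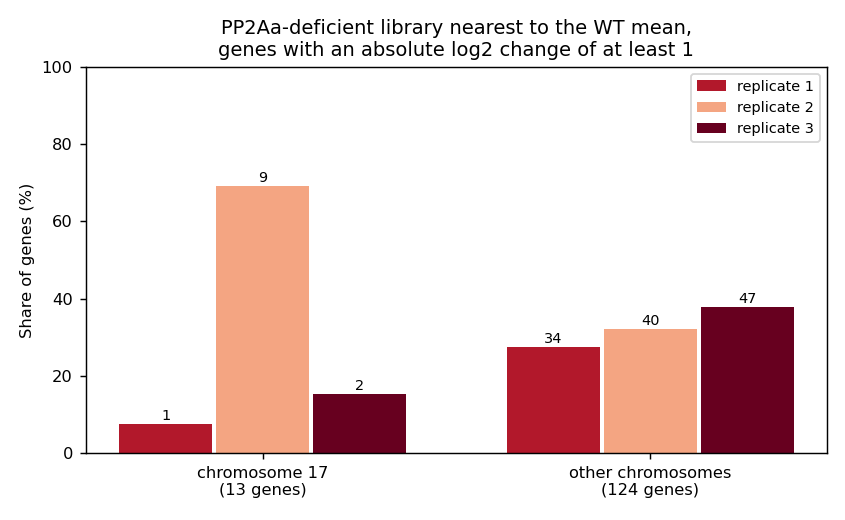
Share of genes in percent, by the PP2Aa-deficient replicate nearest to the WT mean, for chromosome 17 and for the other chromosomes, with gene counts over the bars. Replicate 2 holds 9 of 13 genes on chromosome 17 and 40 of 124 elsewhere; 6 of the 13 are chosen genes.

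Leaving out PP2Aa-deficient replicate 2, a choice made with these values known, limma called 13 of 9223 genes, or 0.141%, of which 6 lie on chromosome 17. This library was left out because of where it stood in genes of this chromosome, so calls gained that way follow from the choice and support nothing. Those that are not members, out of 494 tested, were H2-Eb1 (log2 change -3.03, SE 0.13, limma adjusted p = 0.000101), Ppp2r1a (-1.48, SE 0.13, limma adjusted p = 0.00555) and 4930506C21Rik (-1.95, SE 0.19, limma adjusted p = 0.00984). All 3 were lower in the remaining deficient libraries. Leaving out any other library called 1 to 5 genes in all and 0 of these 3.

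The genes most like each member over the 6 libraries were found by Pearson's r of log2(FPKM + 1). With so few libraries, 20 to 47 of the tested genes reached an r of 0.95 with any one of the members or Ppp2r1a, or 0.212% to 0.499%. The gene most like Vars was H2-Eb1 (r = 0.998), followed by Mark2 (0.997) and Snora70 (0.989), and the gene most like Ppp2r1a was 4930506C21Rik (r = 0.996), followed by Sec14l1 (0.996) and Idh3g (0.994). Chromosome 17 holds 5.36% of the tested genes that are not members. Of the genes at 0.95 or more, members left out, 10 of 42 for Vars and 10 of 46 for Ppp2r1a lie on chromosome 17. That count was 5 of 36 for Emr1, 1 of 19 for Crisp3, 2 of 40 for Tmem242, 2 of 40 for Pla2g7, 0 of 37 for Tagap1 and 0 of 32 for Rab26os.

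For the other members the likest genes lay on other chromosomes with 1 exception. For Crisp3 they were Dgke (r = 0.983), Haus5 (0.982) and Tmx4 (0.979), and for Emr1 Ptcd2 (0.995), Lats2 (0.990) and Abcg1 (0.986), of which the cholesterol exporter gene Abcg1 is on chromosome 17. For Rab26os they were Meig1 (r = 0.998), Cnst (0.986) and Dnajc17 (0.985), and for Tmem242 Arl10 (0.998), Osgepl1 (0.995) and Oas3 (0.986). For Tagap1 they were Plekhf2 (r = 0.992), Trmt13 (0.990) and Rab10 (0.989), and for Pla2g7 Zfp266 (0.992), Tyk2 (0.990) and Zfpl1 (0.990). All of these values share the same 6 libraries and the same group difference.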

How the data were processed

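The authors deposited 1 table of FPKM values with 1 column per library, not pooled. Its header has the layout of Cuffnorm, and a row under the header gives each column's well, which matches the sample titles. Tools listed per the submitters' processing notes are Cuffnorm, Cufflinks 2.2.1, TopHat2 2.0.10 and BWA, whose roles are not stated. Not given in the sources used here are build, annotation, library scaling and use of strand. Of 22815 rows, 27 with dates in place of symbols were left out. The deposited plate sheet calls these wells miRNA controls and targets, which differs from the genotype in the labels; the labels set the groups.

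Values were used as deposited. Genes at 1 FPKM or more in at least 3 libraries were tested as log2(FPKM + 1), which understates changes of low genes, with limma 3.58.1 under R 4.3.3 (a two-sided moderated test, mean-variance trend, Benjamini-Hochberg at 0.05); the fit was tested on simulated data. Summaries and figures used Python 3.11.15 with pandas 2.3.3 and matplotlib 3.10.9. Chromosomes came from RefSeq names of GRCm38.p6 for 9387 of 9425 tested genes. Gene order came from RefSeq start and end positions, and distances were not used. That order put the class I genes H2-Q8 and H2-Q9 at numbers 1 and 2 of chromosome 17, away from H2-Q7 at 281 and H2-Q10 at 282. Numbers along the chromosome are therefore approximate. Relative depth is the most common ratio of values under 1 FPKM between libraries; fragment numbers use the longest GENCODE M21 transcript and are approximate. Words of 31 bases were compared over all GENCODE M21 transcripts. Fragments of a PCR-amplified library are not independent molecules.

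The members and gene lists were chosen with earlier results of these data known. The naming rule took the members, Ppp2r1a, H2-Eb1, the 10 chromosome 17 genes of smallest p without overlap (no Gm or Rik names), the smallest p of each list, the 3 likest genes of each member and its tested neighbours. Alternatives were a filter at 5 FPKM or none, a pseudocount of 0.1 or 0.5, median-ratio scaling, quantile normalization, no trend, a term for high Xist, array weights and leaving out each library. The full name of the deficient genotype and 1 gene list are not reported here.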

Additional observations from a re-analysis of the deposited data

How the results depend on the processing

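The count of called genes, 3 in all, was 5 with the filter at 5 FPKM, 11 with quantile normalization, 9 without the trend and 16 with array weights, and ran from 1 to 13 when 1 library was left out: 13 without PP2Aa-deficient replicate 2, 5 without WT replicate 1 and 1 without WT replicate 2 or 3. The causes were not tested. The 62 chromosome 17 genes outside the members at an unadjusted limma p under 0.05 numbered 44 to 64 with a library left out and 46 to 81 under the other settings. Genes of the pathway lists at that p, without the marker lists, were 11 in all, 5 of them class II genes, and numbered 8 to 15. Replicate 2 was nearest to WT in 15 of 33 chromosome 17 genes with a pseudocount of 0.1, which lets more low genes reach the size, and in 6 of 8 with the filter at 5 FPKM. Both counts include members, chosen on these values, so nothing is read from them. Without the members the first was 10 of 26, or 38.5%, against 110 of 397 on other chromosomes, or 27.7%.

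No member changed direction under any setting that kept it. The members were chosen on this difference, so a kept direction follows in part from the choice and nothing is read from it. The log2 change ran from 1.05 to 1.22 for Tmem242, 1.52 to 2.79 for Tagap1, -1.75 to -0.86 for Vars, -2.89 to -0.85 for Crisp3, -2.92 to -1.40 for Emr1 and 0.87 to 1.17 for Pla2g7. Rab26os left the test when any 1 WT library was left out, and no size is given for it. Tagap1 left the test when any 1 deficient library was left out, so its range says nothing of dependence on those libraries. With the filter at 5 FPKM, Tagap1, Crisp3 and Emr1 left it too. No paired analysis was possible because the labels carry no replicate numbers. At about 2070000 to 3710000 fragments a library, members of a few FPKM rest on few fragments.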

Other observations

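A few more chromosome 17 genes, chosen after their values were seen, had PP2Aa-deficient replicate 2 near WT. H2-Ob, a chain gene of the class II chaperone that tempers peptide loading in B cells, was at 142, 233 and 140 FPKM in PP2Aa-deficient replicates, against 235, 248 and 270 FPKM in WT replicates. H2-T23, a nonclassical class I gene, was at 30.2, 44.9 and 24.4 FPKM in PP2Aa-deficient replicates, against 55.6, 47.6 and 46.4 FPKM in WT replicates. Cdkn1a, the cell cycle inhibitor p21 gene, was at 13.0, 22.5 and 10.6 FPKM in PP2Aa-deficient replicates, against 21.6, 24.3 and 23.5 FPKM in WT replicates. The noncoding gene C920025E04Rik went the other way, at 89.3, 37.3 and 78.8 FPKM in PP2Aa-deficient replicates, against 41.2, 31.8 and 43.8 FPKM in WT replicates. None of the 4 was called by limma over all genes (adjusted p = 0.405, 0.418, 0.472 and 0.510 in this order).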
